A study of Mus musculus with 7 samples.

Results

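Transcripts of 33 genes of sterol synthesis, uptake and export were followed in aged mice, in the haematopoietic stem cells with long-term activity (LT-HSCs). The genes were taken by name and are 33 of the 53458 genes in the deposited tables; all 33 passed the filter on low counts, which kept 20314 genes. The groups were 4 wild-type mice (Srp72+/+, called WT 1 to WT 4) and 3 mice with 1 altered allele of Srp72 (called Srp72+/- 1 to Srp72+/- 3), all labelled C57/BL6 and aged, with no treatment named and no age in months given. The sources used here do not give how the allele was altered or whether any cell type limits it. Cells came from bone marrow by flow sorting for Sca1, cKit and CD150 in the absence of Flt3, CD48 and the lineage antigens Ter119, B220, CD3, Mac1 and Gr1, and the 7 libraries stand for 4 and 3 mice. Srp72 encodes a protein of the signal recognition particle, which brings ribosomes to the endoplasmic reticulum (ER), and the comparison asks how the stem cell transcriptome differs with this genotype.

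Cells make cholesterol from acetyl-CoA. The early, mevalonate arm ends in farnesyl pyrophosphate, which either goes to squalene and on through the sterol rings to cholesterol, or is lengthened to geranylgeranyl pyrophosphate for protein prenylation. Most of the later enzymes sit in the ER membrane. The regulator is there too. SREBP2, the product of Srebf2, is held in the ER by SCAP and INSIG when sterol is plentiful, and moves to the Golgi, is cut and turns on synthesis and uptake genes when sterol is short. Liver X receptors (LXR, encoded by Nr1h2 and Nr1h3) act in the opposite sense, since oxysterols activate them to raise the exporters ABCA1 and ABCG1 and MYLIP, a ligase that removes lipoprotein receptors. In mouse blood formation, ABCA1 and ABCG1 are known as brakes on the expansion of stem and progenitor cells.

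The libraries held between 18054322 and 35247472 estimated reads, the largest being Srp72+/- 3. WT 2 stood apart from the other libraries in its cell type markers. The summed level of 15 HSC marker genes was 199.5 CPM (read counts divided by the scaled library size) in WT 2, against 2292 to 2893 CPM in the other WT libraries and 1469 to 2330 CPM in Srp72+/-. Markers of 4 mature lineages were highest in WT 2, at 33330 CPM for 10 neutrophil genes, 8930 CPM for 10 erythroid genes, 10610 CPM for 10 B and plasma cell genes and 4285 CPM for 10 monocyte and macrophage genes. The next highest was Srp72+/- 1 for each of these 4 lists, at 10680, 6624, 4426 and 2035 CPM. The remaining libraries were not alike either. Their neutrophil genes were at 87.7 CPM in WT 1, 7990 CPM in WT 3, 2461 CPM in WT 4, 4757 CPM in Srp72+/- 2 and 959.4 CPM in Srp72+/- 3. The 8 T and NK cell genes were also highest in WT 2 (201 CPM), but followed by Srp72+/- 3 (91.9 CPM). The 10 proliferation genes were at 3831 CPM in WT 2, 2402 CPM in Srp72+/- 1 and 2070 CPM in Srp72+/- 3. In the other libraries they were at 661.1 to 1127 CPM. Megakaryocyte markers were instead lowest in WT 2 (27.63 CPM) and next lowest in Srp72+/- 1 (113 CPM), and highest in Srp72+/- 3 (844 CPM). Fitted values without WT 2 are given below for the sterol genes it moved most, and the part of the marker differences in them was not tested. In such bulk samples, fewer cells of a type and less RNA per cell cannot be told apart. Srp72 itself was at 88.4 to 136.6 CPM across the WT libraries, against 45.7 to 109.8 CPM across Srp72+/-, with a log2 fold change of -0.50 (SE 0.32, edgeR unadjusted p = 0.159, adjusted p = 0.9998), so the groups overlapped for the targeted gene.

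None of the 33 sterol genes passed an adjusted p of 0.05 in the quasi-likelihood test of edgeR (smallest adjusted p = 0.9998), and 0% of the 20314 genes tested did, with 365 genes (1.8%) at an unadjusted p below 0.05. In Srp72+/- 24 fitted values were lower and 9 higher, and their median log2 fold change was -0.18, where 50.7% of all tested genes were lower and their median was -0.01. Among the protein-coding genes alone, 7662 of 14125 were lower and the median was -0.04. At an unadjusted p below 0.05 there was 1 member, Insig1, on the lower side, where 0.788% of all genes lay, and 0 on the higher side, where 1.01% lay. Groups did not overlap for 1 member, Sc5d, with lower values in Srp72+/-, against 1.49% of all genes in that direction, and for 0 members with higher values, against 2.08% (3.57% in both directions together). DESeq2 called 0 of the 33 and 0.0447% of all genes. The 95% interval stayed within a 2-fold change in either direction for only 8 of the 33 members, and those of the others reached beyond it. These p-values measure the spread between mice and between their libraries together.

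**Figure D1:**
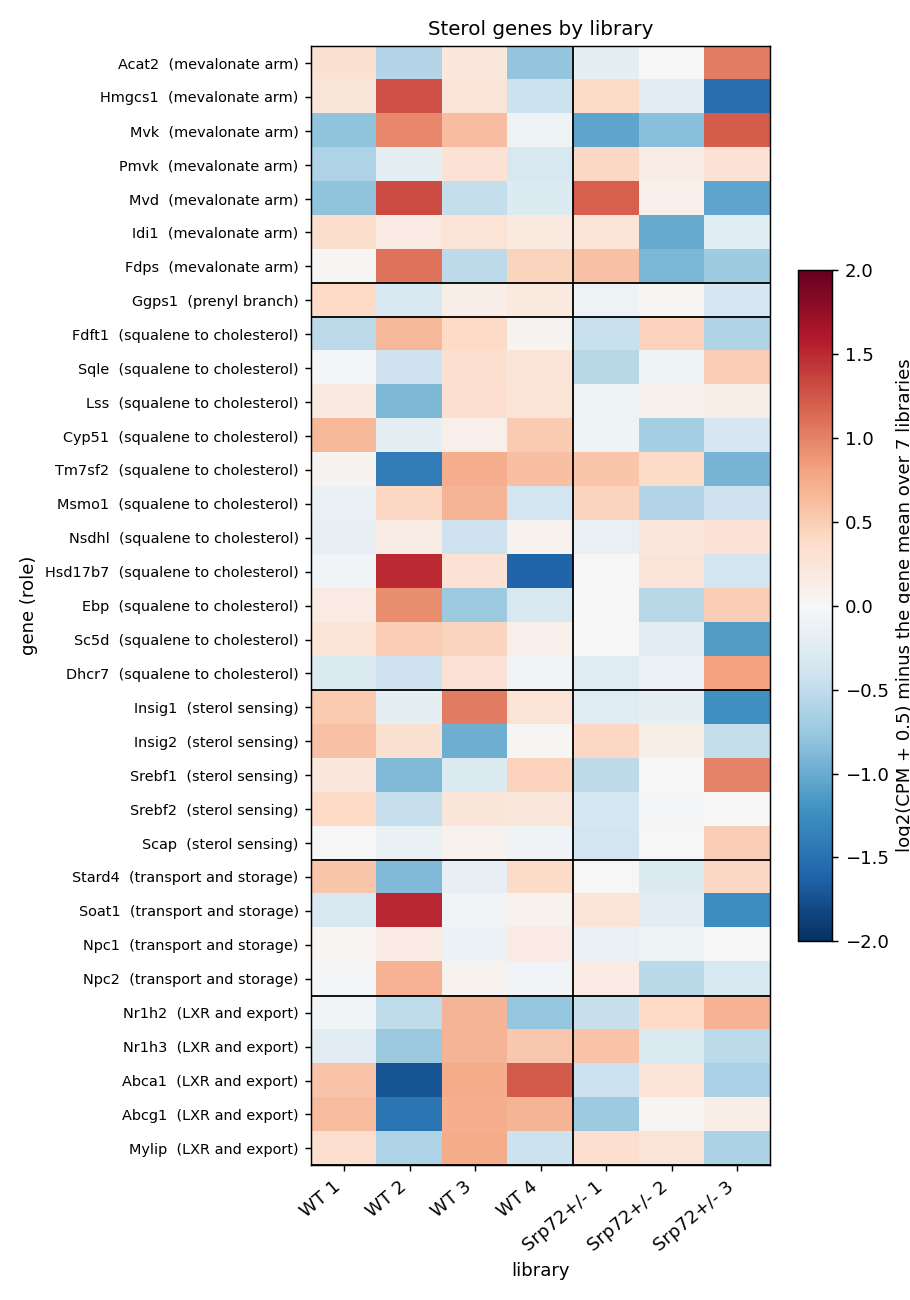
Levels of the 33 sterol genes (rows, grouped by role) in the 7 libraries (columns), as log2 of CPM plus 0.5 with the gene's own mean over the 7 libraries subtracted; red is above and blue below that mean. WT 2 holds the highest value of 10 genes and the lowest of 9, and Srp72+/- 3 the highest of 8 and the lowest of 8.

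In the mevalonate arm, the fit put 4 of 7 genes lower and 3 higher in Srp72+/- (median -0.18), and without WT 2 it put 3 of 7 lower (median 0.17). Hmgcs1, the cytosolic synthase that makes HMG-CoA, was at 17.4, 36.1, 17.5 and 10.6 CPM in WT 1 to WT 4 and at 19.1, 12.4 and 4.76 CPM in Srp72+/- 1 to Srp72+/- 3. Its highest value lay in WT 2 and its lowest in Srp72+/- 3, and the groups overlapped, with a log2 fold change of -0.76 (SE 0.56, edgeR unadjusted p = 0.214). Without WT 2 the log2 fold change of Hmgcs1 was -0.33. Idi1, the isomerase that converts the first isoprene unit into its reactive form, was even across the WT libraries at 33.9, 29.9, 32.0 and 30.4 CPM. In Srp72+/- it was at 32.3, 12.9 and 22.4 CPM, so Srp72+/- 1 lay among the WT values and the other 2 below them (log2 fold change -0.48, SE 0.33, edgeR unadjusted p = 0.175). Pmvk, a kinase of mevalonate activation, ran higher, at 3.59, 4.99, 7.15 and 4.50 CPM across the WT libraries, against 7.89, 6.43 and 7.16 CPM across Srp72+/-, with a log2 fold change of 0.50 (SE 0.39, edgeR unadjusted p = 0.239). Srp72+/- 1 and Srp72+/- 3 lay above every WT library, and WT 3 lay above Srp72+/- 2.

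The other enzymes of this arm varied widely between libraries. Acat2, which condenses acetyl-CoA in the cytosol, ranged from 7.37 to 27.2 CPM, with its highest value in Srp72+/- 3 (log2 fold change 0.54, and 0.043 without that library). Fdps, the farnesyl pyrophosphate synthase, ranged from 3.39 CPM in Srp72+/- 2 to 15.1 CPM in WT 2 (log2 fold change -0.60). Its fitted value was -0.24 without WT 2 and -1.32 without Srp72+/- 1. The scarce kinase and decarboxylase genes Mvk (0.953 to 6.49 CPM, log2 fold change -0.18) and Mvd (1.001 to 7.23 CPM, log2 fold change 0.18) had no order by genotype. Mvk and Mvd changed sign when single libraries were left out, with values between -1.61 and 0.21 for Mvk and between -0.70 and 1.04 for Mvd. Mvd lies within an antisense protein-coding gene model at 22.9 CPM, and the sources used here do not give the strand setting of the counting.

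Ggps1, which makes geranylgeranyl pyrophosphate for protein prenylation, was at 49.5, 30.1, 41.1 and 42.9 CPM across the WT libraries, against 34.7, 37.8 and 29.6 CPM across Srp72+/- (log2 fold change -0.26, SE 0.25, edgeR unadjusted p = 0.317). WT 2 was the only WT library within the Srp72+/- range.

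From squalene to cholesterol, the fit put 9 of 11 genes lower in Srp72+/- (median -0.11). The count was 7 of 11 without WT 2 (median -0.17), 6 of 11 without WT 3 (median -0.14) and 6 of 11 without WT 4 (median -0.28). Sc5d (chromosome 9, 42251595 to 42264256 on the minus strand of GRCm38), the desaturase that places a double bond in the sterol ring late in the route, was at 19.7, 23.2, 22.2 and 17.4 CPM in WT. In Srp72+/- it was at 16.2, 13.7 and 7.19 CPM, each below every WT value. The log2 fold change of Sc5d was -0.74 (SE 0.35, 95% interval -1.53 to 0.05, edgeR unadjusted p = 0.0642, adjusted p = 0.9998). The gap between the groups was narrow, from 16.2 to 17.4 CPM, and all its reads were assigned to protein-coding transcripts. Cyp51 (chromosome 5, 4081145 to 4104746, minus strand), the lanosterol demethylase, was at 27.6, 14.96, 18.6 and 25.1 CPM across the WT libraries, against 16.2, 10.7 and 13.5 CPM across Srp72+/-. Only WT 2 reached into the Srp72+/- range, and the log2 fold change was -0.68 (SE 0.33, edgeR unadjusted p = 0.0686). Over 166 bases Cyp51 overlaps Akap9 on the other strand, a gene at 148.9 CPM.

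Dhcr7, the reductase of the final step of one branch, ran in the other direction, at 21.2, 19.2, 31.5 and 24.7 CPM across the WT libraries, against 21.6, 23.7 and 45.0 CPM across Srp72+/- (log2 fold change 0.32, SE 0.34, edgeR unadjusted p = 0.372). Srp72+/- 3 was above all other libraries, and without it the log2 fold change of Dhcr7 was -0.10. Per transcript length the picture was different. On the TPM scale (a level that also divides reads by transcript length) Dhcr7 was at 7.59, 8.66, 14.8 and 6.29 in WT and at 22.6, 34.6 and 12.2 in Srp72+/-, where Srp72+/- 3 was the lowest of its group. With an offset for the length of the transcripts used, the log2 fold change was 0.98 (edgeR unadjusted p = 0.0309, adjusted p = 0.9999). That fit put 473 of the 20314 genes at an unadjusted p below 0.05. The main coding model, Dhcr7-202, took 29.6% and 35.0% of the gene's reads in Srp72+/- 1 and Srp72+/- 2, against 57.6% to 85.9% in the other 5 libraries. On reads of protein-coding transcripts alone the log2 fold change of Dhcr7 was 0.20 (edgeR unadjusted p = 0.653, adjusted p = 0.9995). Those transcripts were at 3.24 ± 1.71 TPM in WT (SD, n = 4) and 4.16 ± 1.59 TPM in Srp72+/- (SD, n = 3). The size of the Dhcr7 difference thus depended on whether transcript length entered the fit and on which transcript models were counted.

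Among the other enzymes of this stretch, the log2 fold changes were -0.34 for Fdft1 (squalene synthase), -0.04 for Sqle (squalene epoxidase), -0.01 for Lss (lanosterol synthase), -0.07 for Tm7sf2 (a sterol reductase) and -0.32 for Msmo1 (the methyl oxidase). They were 0.21 for Nsdhl and -0.46 for Hsd17b7, which act after it in removing the methyl groups, and -0.11 for Ebp, a sterol isomerase. Sqle ranged from 20.9 to 43.7 CPM and Nsdhl from 9.83 to 16.3 CPM. Hsd17b7 ranged from 1.80 CPM in WT 4 to 19.2 CPM in WT 2. Lss was at 21.5, 9.98, 24.1 and 23.1 CPM across the WT libraries, against 17.7, 20.3 and 20.5 CPM across Srp72+/-, so that all 3 Srp72+/- values lay below WT 1, WT 3 and WT 4 and above WT 2.

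Among the genes of sterol sensing, Insig1 had the lowest fold of all 33 members. Insig1 (chromosome 5, 28071363 to 28078662, plus strand) encodes the ER protein that holds the SCAP and SREBP complex back, and its own gene is switched on by SREBP2. It was at 23.8, 14.3, 34.4 and 19.96 CPM across the WT libraries, against 13.8, 14.5 and 6.70 CPM across Srp72+/-, with means of 23.1 ± 8.5 CPM (SD, n = 4) and 11.7 ± 4.3 CPM (SD, n = 3). WT 2 fell between Srp72+/- 1 and Srp72+/- 2, and all other WT values lay above Srp72+/-. The log2 fold change was -0.99 (SE 0.42, 95% interval -1.94 to -0.04, edgeR unadjusted p = 0.0436, adjusted p = 0.9998), a ratio of 0.504. Leaving out 1 library at a time moved the log2 fold change of Insig1 between -1.19 and -0.72, and its unadjusted edgeR p between 0.0144 (without WT 2) and 0.122 (without Srp72+/- 3). Insig2, the paralogue that responds less to sterol, showed no such lean (4.89 to 15.5 CPM, log2 fold change -0.03).

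Srebf2 (chromosome 15, 82147181 to 82205379, plus strand) was at 151.3, 83.8, 136.4 and 135.2 CPM across the WT libraries, against 89.8, 112.3 and 114.7 CPM across Srp72+/- (log2 fold change -0.26, SE 0.25, edgeR unadjusted p = 0.328). Its lowest value lay in WT 2, and the Srp72+/- values lay between it and the other 3 WT libraries. Scap, the escort and sterol sensor, was at 38.6 to 44.5 CPM across the WT libraries, against 32.4 to 59.4 CPM across Srp72+/- (log2 fold change 0.11). Srebf1, whose products drive fatty acid synthesis and which is itself an LXR target, was at 46.1, 21.3, 32.95 and 55.2 CPM across the WT libraries, against 27.6, 39.98 and 79.3 CPM across Srp72+/- (log2 fold change 0.33, SE 0.44, edgeR unadjusted p = 0.466). Its highest value was in Srp72+/- 3, and without that library the log2 fold change was -0.21.

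**Figure D2:**
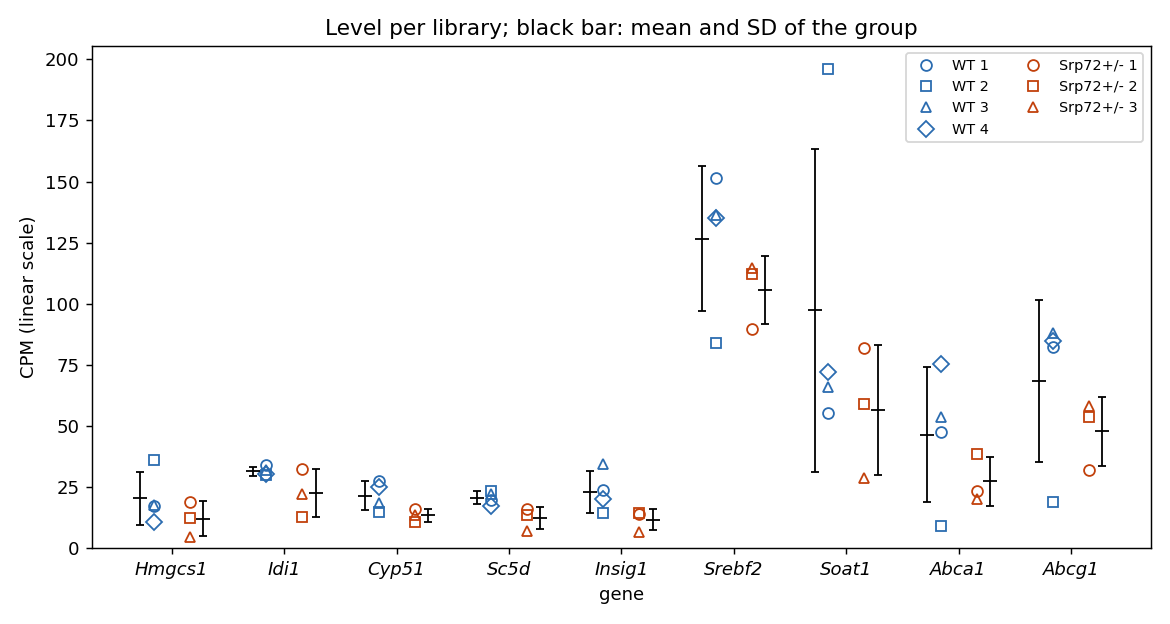
CPM on a linear axis for 9 sterol genes, with 1 symbol per library (blue for WT, orange for Srp72+/-) and the group mean with its SD as a black bar (n = 4 and n = 3). The WT 2 squares lie at 195.9 CPM for Soat1, above all other libraries, and at 9.27 CPM for Abca1 and 18.9 CPM for Abcg1, below all other libraries.

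For transport and storage, 3 of 4 genes had lower fitted values. Soat1 (chromosome 1, 156424525 to 156474331, minus strand), which esterifies cholesterol for storage, was at 55.4, 195.9, 66.0 and 71.9 CPM across the WT libraries, against 82.1, 58.9 and 28.7 CPM across Srp72+/-. WT 2 was more than any other library, and the group difference followed it, with a log2 fold change of -0.78 (SE 0.53, edgeR unadjusted p = 0.176) with WT 2 and -0.18 without. Npc2, the soluble lysosomal protein that hands cholesterol to NPC1, was at 49.5, 83.0, 53.5 and 49.1 CPM across the WT libraries, against 56.8, 34.9 and 41.2 CPM across Srp72+/- (log2 fold change -0.41, SE 0.29, edgeR unadjusted p = 0.190). Without WT 2 the log2 fold change of Npc2 was -0.19. Soat1 and Npc2 were thus high in the library richest in monocyte, macrophage and neutrophil markers, whose part in the result was not tested. Npc1, the lysosomal membrane transporter, was even, at 37.6, 41.1, 33.6 and 40.9 CPM across the WT libraries, against 32.8, 34.1 and 36.9 CPM across Srp72+/- (log2 fold change -0.15, SE 0.21, edgeR unadjusted p = 0.503). Stard4, a soluble sterol carrier under SREBP2, was between 39.1 and 107.0 CPM, lowest in WT 2, with a log2 fold change of 0.003 (SE 0.36).

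Both exporter genes, Abcg1 and Abca1, had their lowest value in WT 2, and neither passed the adjusted threshold with or without it. Abcg1 (chromosome 17, 31057675 to 31117988, plus strand), which moves cholesterol to lipoprotein particles, was at 82.2, 18.9, 87.9 and 84.8 CPM across the WT libraries, against 31.9, 53.6 and 58.3 CPM across Srp72+/-. Abca1 (chromosome 4, 53030787 to 53159895, minus strand), which loads cholesterol onto lipid-poor apolipoprotein, was at 47.5, 9.27, 53.7 and 75.5 CPM across the WT libraries, against 23.4, 38.6 and 20.1 CPM across Srp72+/-. For both genes the 3 Srp72+/- libraries lay between WT 2 and the remaining WT libraries, so that the groups overlapped through WT 2 alone. The log2 fold changes were -0.51 for Abcg1 (SE 0.50, edgeR unadjusted p = 0.335) and -0.76 for Abca1 (SE 0.60, edgeR unadjusted p = 0.240). With WT 2 left out they were -0.82 for Abcg1 (SE 0.26, edgeR unadjusted p = 0.0116, adjusted p = 0.977) and -1.10 for Abca1 (SE 0.32, edgeR unadjusted p = 0.00680, adjusted p = 0.977). WT 2 was also the lowest library for the summed HSC markers, whose part in the result was not tested. The next lowest library was Srp72+/- 1 for Abcg1 and for the HSC markers, and Srp72+/- 3 for Abca1.

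The LXR genes themselves were not separated by genotype. Nr1h2 was at 29.2, 21.2, 48.8 and 17.5 CPM across the WT libraries, against 21.9, 40.1 and 49.1 CPM across Srp72+/- (log2 fold change 0.35, SE 0.42, edgeR unadjusted p = 0.436). Nr1h3, the form typical of macrophages and liver, was scarce at 1.23, 0.703, 2.73 and 2.43 CPM across the WT libraries, against 2.49, 1.16 and 0.910 CPM across Srp72+/-, from 11 to 57 reads per library (log2 fold change -0.23, SE 0.67, edgeR unadjusted p = 0.736). Mylip ranged from 9.80 to 26.0 CPM with a log2 fold change of -0.07.

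**Figure D3:**
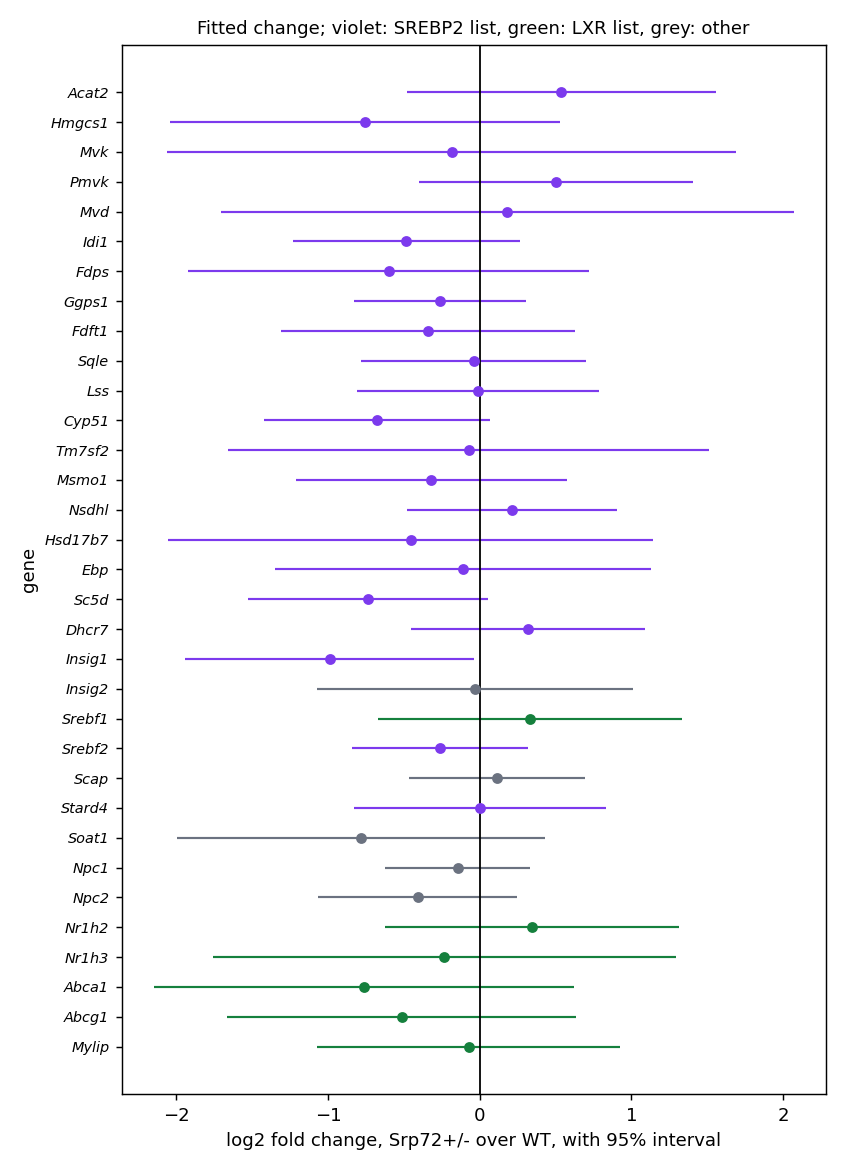
Log2 fold change of Srp72+/- over WT (horizontal axis) for each of the 33 genes, with the 95% interval from the edgeR fit; violet marks genes under SREBP2, green LXR genes and LXR targets, grey the rest. The interval of 1 gene, Insig1, excludes 0.

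Synthesis and export genes, each with regulators and further targets, were set against each other as lists. The SREBP2 list joined the 19 enzymes with Insig1, Stard4 and Srebf2 (22 genes), and the LXR list held Nr1h2, Nr1h3, Abca1, Abcg1, Mylip and Srebf1 (6 genes). The fit put 16 of 22 genes of the SREBP2 list lower in Srp72+/- (median -0.22 on the log2 scale) and 4 of 6 of the LXR list (median -0.15), against -0.01 over all genes tested. Without WT 2 the counts were 14 of 22 (median -0.22) and 4 of 6 (median -0.37). The mean log2 CPM of the SREBP2 list was 3.82, 3.94, 4.00 and 3.76 in WT and 3.81, 3.61 and 3.61 in Srp72+/-. Thus 2 of the Srp72+/- libraries lay below all WT libraries, and Srp72+/- 1 lay among them. Means were 3.88 ± 0.11 (SD, n = 4) and 3.68 ± 0.12 (SD, n = 3).

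The mean log2 CPM of the LXR list was 4.51, 3.22, 4.85 and 4.57 in WT and 4.08, 4.37 and 4.24 in Srp72+/-. All Srp72+/- libraries lay below WT 1, WT 3 and WT 4 and above WT 2. The SREBP2 list minus the LXR list was -0.69, -0.84 and -0.81 in these WT libraries and -0.26, -0.76 and -0.63 in Srp72+/-. It was 0.72 in WT 2, the only library in which the SREBP2 list lay above the LXR list. WT 2 and Srp72+/- 1 had the highest values of this difference. They were the 2 libraries highest in neutrophil, erythroid, B and plasma cell, and monocyte and macrophage markers and lowest in megakaryocyte markers. These 2 libraries were also the highest in proliferation markers. The part of any of these markers in the difference was not tested. With WT 2 and Srp72+/- 1 left out, the median of the SREBP2 list was -0.17 (13 of 22 lower) and that of the LXR list -0.51 (4 of 6 lower). When WT 3 was left out instead, the LXR list median turned to 0.12.

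**Figure D4:**
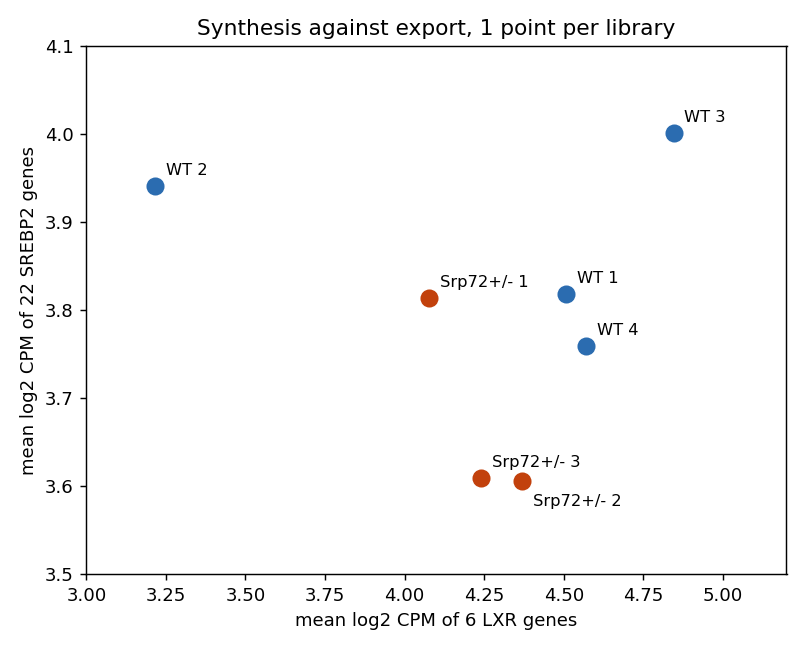
Mean log2 CPM of the 22 genes under SREBP2 (vertical axis) against that of the 6 LXR genes (horizontal axis), with 1 point per library; blue is WT and orange Srp72+/-. WT 2 lies apart on the left at 3.22, and Srp72+/- 2 and Srp72+/- 3 lie lowest at 3.61.

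With WT 2 left out, the 3 remaining WT libraries and the 3 Srp72+/- libraries did not overlap for 8 of the 33 genes, all lower in Srp72+/-, where 5.33% of the tested genes were. In that fit 21 of the 33 had lower values, against 46.9% of all genes. Without Srp72+/- 3 the count was 24, against 54.1%, and without WT 2 and Srp72+/- 1 it was 21, against 48.7%. None of the 33 was separated in the higher direction, against 4.74%. The 8 were Ggps1, Lss, Cyp51, Sc5d, Insig1, Srebf2, Abca1 and Abcg1, so 6 belonged to the SREBP2 list and 2 were the exporters. For all of them but Sc5d, WT 2 held the lowest WT value, so their separation came with leaving it out. With WT 2 kept, Sc5d alone was separated. Separation was not counted with any other library left out. Cell type markers were uneven in the comparison without WT 2 too. Mean summed HSC markers were 2677 CPM in WT 1, WT 3 and WT 4, against 2014 CPM in Srp72+/-. All other marker lists had the higher mean in Srp72+/-, among them erythroid (230.8 against 2693 CPM) and proliferation genes (917.2 against 1866 CPM). The spread was wide. In Srp72+/- 1, Srp72+/- 2 and Srp72+/- 3 erythroid markers were at 6624, 1215 and 239.2 CPM, against 152.3 to 364.9 CPM in these WT libraries. Megakaryocyte markers were at 113, 188.8 and 844 CPM, against 139.2 to 271.9 CPM. Proliferation genes were at 2402, 1127 and 2070 CPM, each above the WT range of 661.1 to 1093 CPM. The part of these differences in the 8 genes was not tested. Of the 8, Insig1, Abca1, Abcg1 and Cyp51 had an unadjusted p below 0.05 (edgeR, adjusted p = 0.977 for each of these 4). Of all genes, 2.23% had one on the lower side and 2.61% on the higher side. The adjusted threshold was passed by 0 of the 33. The log2 fold changes without WT 2 were -1.16 (SE 0.38) for Insig1, -0.82 (SE 0.31) for Cyp51, -0.67 (SE 0.36) for Sc5d, -0.41 (SE 0.20) for Srebf2, -0.38 (SE 0.23) for Ggps1 and -0.23 (SE 0.25) for Lss. Among genes whose groups still overlapped, the fitted value without WT 2 was -0.15 for Fdft1, -0.17 for Sqle, -0.39 for Tm7sf2, -0.21 for Stard4, -0.25 for Mylip and -0.49 for Nr1h3. It was 0.26 for Hsd17b7, 0.32 for Ebp, 0.17 for Mvk and 0.057 for Insig2, all 4 of which had been below 0 with WT 2, and 0.13 for Srebf1, 0.22 for Nr1h2 and 1.04 for Mvd.

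Promoter letters were examined in RefSeq windows on GRCm38.p6, from 250 bases before to 50 after each start site. Of the 33 genes 27 had an entry, with 36 windows between them. The sterol regulatory element, where SREBP binds, was searched as TCACNCCAC on both strands, and 1 of the 36 windows held it (Hmgcs1) against 1.24% of all 32851 windows. CCAAT, the NF-Y box that often stands beside such elements, was in 23 of 36 windows against 37.4% of all, and the GC box GGGCGG in 27 of 36 against 35.7%. The E-box CACGTG was in 7 of 36 windows against 7.15% of all. Those 7 windows belonged to Insig1, Sc5d, Abca1, Dhcr7, Hsd17b7 and Scap, whose overlapping windows share 1 E-box that is counted in each. A match is a run of letters, not a shown binding site. Nor does a window without a match show that a gene lacks a site. Variants of the letters, sites outside the windows and genes without an entry were not covered. The windows below, 150 bases ending before the annotated gene, show Hmgcs1 for its sterol regulatory element and Insig1, Sc5d and Abca1 as the E-box holders among the genes that were lower in every Srp72+/- library than in WT 1, WT 3 and WT 4. Of the other genes so lower, Ggps1, Lss, Cyp51 and Srebf2 had windows without an E-box, and Abcg1 had no entry. Dhcr7, Hsd17b7 and Scap held an E-box and were not so lower. A link between the E-box and the levels was not tested. Capitals mark matches to TCACNCCAC, CCAAT (or ATTGG, its reverse complement) and CACGTG, none of which overlap here, and GGGCGG is left in lower case. They lie at chr13:119690201-119690350 (plus strand), chr5:28071213-28071362 (plus), chr9:42264301-42264450 (minus) and chr4:53159896-53160045 (minus), each written 5′ to 3′ on the gene's strand and outside annotated genes.
Hmgcs1: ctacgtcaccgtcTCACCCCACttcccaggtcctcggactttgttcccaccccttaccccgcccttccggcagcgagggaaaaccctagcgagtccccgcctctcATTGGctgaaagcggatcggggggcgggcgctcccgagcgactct
Insig1: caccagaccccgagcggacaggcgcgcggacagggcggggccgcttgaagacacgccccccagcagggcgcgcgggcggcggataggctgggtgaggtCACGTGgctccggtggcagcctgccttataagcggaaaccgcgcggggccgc
Sc5d: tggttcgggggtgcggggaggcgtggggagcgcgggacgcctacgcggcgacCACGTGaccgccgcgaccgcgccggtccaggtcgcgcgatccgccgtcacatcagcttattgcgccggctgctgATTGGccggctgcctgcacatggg
Abca1: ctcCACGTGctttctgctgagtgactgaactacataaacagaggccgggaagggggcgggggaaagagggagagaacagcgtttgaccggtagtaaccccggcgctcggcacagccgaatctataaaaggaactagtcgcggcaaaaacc

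Levels of different genes were compared per length, as TPM. In WT the highest was Srebf1 at 29.8 ± 17.0 TPM (SD, n = 4), followed by Nr1h2 (19.6 ± 13.8), Soat1 (17.4 ± 5.2), Scap (16.9 ± 4.3) and Srebf2 (16.6 ± 6.5). The lowest were Mvd at 0.677 ± 0.425, Nr1h3 at 0.773 ± 0.527 and Hsd17b7 at 0.900 ± 0.723 TPM. On all transcript models most regulators thus stood above most of the enzymes. Neighbours in this order overlapped, with 0 of the 32 neighbouring pairs separated in the 4 WT libraries. On protein-coding models alone Scap was at 4.40 ± 0.45 TPM and ranked 9 of the 33 genes, Insig1 16, Srebf1 27 and Nr1h3 32. Srebf2 ranked 1, Insig2 4 and Nr1h2 5. For Insig2 the model Insig2-209, with 0 to 6.6 reads per library, held up to 13.5 TPM. Among the synthesis enzymes the highest were Ggps1 (12.2 ± 6.2), Dhcr7 (9.33 ± 3.76) and Msmo1 (8.01 ± 3.19 TPM). This order rests on all transcript models, and on protein-coding models alone Ggps1 ranked 3 of the 33 genes, Dhcr7 ranked 15 at 3.24 ± 1.71 TPM and Msmo1 ranked 8 at 4.56 ± 2.50 TPM.

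The transcript models behind these levels differed between genes. For 14 of the 33 genes the median library had at least 90% of reads on protein-coding models, among them Abca1, Abcg1, Idi1, Cyp51, Stard4 and Hmgcs1. For 5 genes the median was under 50%, namely Lss, Ebp, Srebf1, Mvk and Msmo1. For Srebf1 the coding models held 14.65% to 52.3% of its reads, and 2 processed-transcript models of the gene held between 9.80% and 48.1% and between 13.5% and 27.3%. Counted on coding models alone, Srebf1 was at 1.33 ± 0.64 TPM in WT and ranked 27 of the 33 genes instead of 1, while Srebf2 ranked 1 at 11.6 ± 4.9 TPM. For Lss the coding models had 0 reads in 4 of the 7 libraries and up to 39.2% in the others, and a model with a retained intron, Lss-207, held 36.2% to 72.95%. Ebp had 16.7% to 37.5% on coding models and 44.8% to 83.3% on Ebp-202, another retained-intron model.

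**Figure D5:**
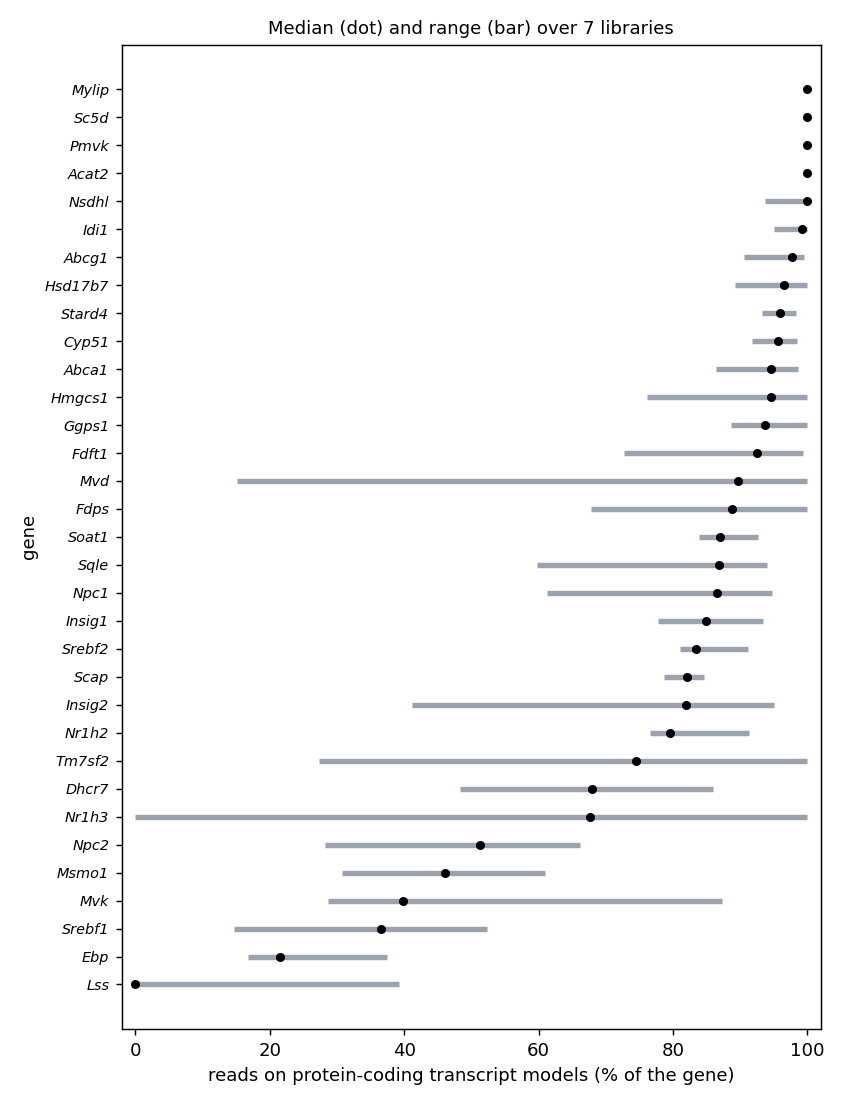
Share of each gene's reads assigned to protein-coding transcript models, in percent, with the median (dot) and the range (bar) over the 7 libraries. Lss, Ebp and Srebf1 lie at the bottom with medians of 0%, 21.5% and 36.5%, and Acat2, Pmvk, Sc5d and Mylip at 100% in every library.

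On coding models alone, Insig1 was at a log2 fold change of -0.94 (edgeR unadjusted p = 0.0606), and the median was -0.20 over the SREBP2 list (15 of 22 lower) and -0.24 over the LXR list (3 of 6 lower).

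Neighbouring steps of the pathway gave 81 further genes, of which 73 were tested and 0 passed the adjusted threshold (edgeR, smallest adjusted p = 0.9998). Of the 73, 49 had lower fitted values, with a median of -0.17. Of 9 genes that cut SREBP or turn over INSIG, 8 were lower (median -0.28), and without WT 2 it was 6 of 9 (median -0.077). Without Srp72+/- 3 the median was -0.17. The site-1 protease gene Mbtps1 was at 66.9 ± 13.6 CPM for WT (SD, n = 4), against 54.7 ± 1.9 CPM (SD, n = 3), and the degradation factors Faf2 and Ufd1 had log2 fold changes of -0.27 and -0.28. In fatty acid synthesis and desaturation 11 of 14 tested genes were lower (median -0.20), with Acly, which supplies cytosolic acetyl-CoA to both fatty acid and sterol synthesis, at -0.36, the elongase Elovl5 at -0.42 and the desaturase Scd1 at -0.73. The median of that list was -0.082 without WT 1 (9 of 14 lower), -0.12 without WT 4 (10 of 14) and -0.32 without Srp72+/- 3 (13 of 14).

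Among genes that use isoprenoids 9 of 13 were lower (median -0.17), and 8 of 13 without Srp72+/- 2 (median -0.091). Fnta, the shared alpha subunit of 2 prenyl transferases, was the 1 gene of the 73 with an unadjusted p below 0.05, where 1.8% of all genes tested had one. It was at 39.0, 32.8, 37.7 and 37.7 CPM across the WT libraries, against 27.9, 24.7 and 22.3 CPM across Srp72+/-. Every Srp72+/- value was below every WT value, WT 2 included, with a log2 fold change of -0.56 (SE 0.22, edgeR unadjusted p = 0.0336, adjusted p = 0.9998). On reads of coding transcripts alone the log2 fold change of Fnta was -0.57 (edgeR unadjusted p = 0.0873). Nus1, a subunit of the dolichol synthase, was at -0.34 on the log2 scale, and Icmt, the methyltransferase that finishes prenylated proteins, at 0.51. Fnta and the oxysterol-binding protein gene Osbpl9 were the 2 of 73 whose groups did not overlap, both lower in Srp72+/-, a share to be read against 1.49% of all genes. Osbpl9 was at 70.7 to 87.2 CPM across the WT libraries, against 53.5 to 66.9 CPM across Srp72+/- (log2 fold change -0.38, SE 0.20, edgeR unadjusted p = 0.0952).

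Other sterol traffic and ester genes were lower in 15 of 21 tested (median -0.17), including the sterol transporters Gramd1b at -0.52 and Osbp at -0.47. Without WT 2 it was 12 of 21 (median -0.067). Leaving out WT 1 gave a median of -0.26, and leaving out Srp72+/- 3 one of -0.29. Of LXR partners and further targets 2 of 9 tested were lower (median 0.09), but this direction turned without Srp72+/- 3 (5 of 9 lower, median -0.055) and under voom (5 of 9, median -0.027). Leaving out WT 2 gave a median of 0.17, leaving out Srp72+/- 2 one of 0.20 and leaving out Srp72+/- 1 one of 0.053. Smpdl3a, an LXR target, was at -0.35, Lpcat3, a phospholipid remodelling enzyme under LXR, at 0.28 and the partner receptor Rxrb at 0.25. The oxysterol enzymes held no stable direction. Of 7 tested 4 were lower (median -0.17), but the median was 0.69 without WT 2 (3 of 7 lower), 0.049 without WT 1 (3 of 7), 0.62 under voom (3 of 7) and 0.033 with no filter on low counts (4 of 8). Leaving out WT 3 gave -0.085, leaving out Srp72+/- 2 gave -0.34 and leaving out Srp72+/- 3 gave -0.048. Cyp39a1 was at 0.61, Hsd3b7 at -0.37 and Sult2b1 at -0.75. Ch25h, which makes 25-hydroxycholesterol, and the exporter Abcg5 were at 0 reads in all 7 libraries, where 3 reads would be between 0.091 and 0.192 CPM.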

How the data were processed

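The authors deposited 1 table per library with estimated counts (expected counts) of reads per transcript and TPM values; per the submitters' processing notes these came from Salmon 0.12.0, with mm10 and GRCm38.p6 named. Per the labels' protocols, RNA from sorted cells was amplified (NuGEN Ovation V2) before library making, which can widen differences between libraries. The sources used here do not give the transcript release, strand setting or bias options. Of 136288 transcripts 136176 matched GENCODE M21 (GRCm38); counts were summed to 53458 genes and rounded. Genes were filtered (filterByExpr, minimum count 10, minimum total 15), scaled by TMM and tested over 20314 genes with edgeR 4.0.16 (robust quasi-likelihood, Benjamini-Hochberg, threshold 0.05, R 4.3.3), Srp72+/- against WT. CPM uses the TMM-scaled library sizes; log2 CPM has a prior count of 2. Lists carry no test. The test was checked on simulated data, which does not mean that differences of the sizes given here would be called.

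The sterol genes and all lists were chosen with earlier results of these data known. All 33 were named, with values in every library for the 3 with the smallest p in each role and for Srebf2, Nr1h2 and Nr1h3; 3 genes with the smallest p were named from each neighbouring list. Alternatives were scaling by RLE or upper quartile, leaving the filter out or tightening it (mean 10 counts, and 1 CPM in 3 libraries), protein-coding genes, a length offset, DESeq2 1.42.0, voom in limma 3.58.1, the replicate block, each library left out, WT 2 and Srp72+/- 1 left out, and, chosen after seeing the data, coding transcripts only. Reads are not independent molecules, so floors (3 reads) cover counting error only.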

Additional observations from a re-analysis of the deposited data

Results flagged for a closer look

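In the group of 4 WT libraries, 36 sets of values (33 genes and 3 list measures) were searched for a library far from the others, its gap to the nearest being over 0.829 of the whole range. For independent sets chance gives about 1 in 20, and 4 were found, each with WT 2 as the distant library. The 36 sets share the same 4 libraries, and the list measures hold the same genes. The 4 therefore cannot be set against that rate. Abcg1 was at 4.25 log2 CPM in WT 2 and at 6.36 to 6.46 in the other WT libraries. Lss was at 3.33 log2 CPM in WT 2, against 4.43 to 4.60. Npc2 was at 6.38, against 5.62 to 5.74. The mean of the SREBP2 list minus that of the LXR list was 0.72 in WT 2, against -0.84 to -0.69.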

How the results depend on the processing

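The median of the SREBP2 list kept its sign under all 18 alternatives, and 0 of the 33 sterol genes passed the adjusted threshold in any. The mevalonate arm within that list did not keep its sign. From -0.18 its median turned to 0.17 without WT 2, 0.16 without Srp72+/- 2, 0.18 without WT 2 and Srp72+/- 1 and 0.13 with the length offset. It was below 0 in the other alternatives, down to -0.70 without Srp72+/- 1. Leaving out 1 library at a time moved the SREBP2 list median between -0.27 and -0.16, the LXR median between -0.37 and 0.12, and the count over all genes between 0 and 1. DESeq2 called 9 genes. Of 936 values of single named genes under alternatives, 863 kept their direction and 73 changed sign. None of the named genes had been called in the main fit, so no sign change could fall on a called gene. Equal replicate numbers did not pair the libraries (correlations of -0.316, -0.162 and 0.002), and the replicate block gave 0 calls over all genes, medians of -0.23 (SREBP2 list) and -0.07 (LXR list), and sign changes to 0.028 for Insig2, 0.14 for Lss, -0.0502 for Mvd, 0.0456 for Nr1h3, 0.28 for Tm7sf2, 0.033 for Scd1 and 0.053 for Sult2b1. With the block the medians of the neighbouring lists were -0.027 for sterol traffic (12 of 21 lower), -0.033 for fatty acid synthesis (8 of 14) and 0.60 for oxysterol enzymes (2 of 7). Stard4 turned to -0.0169 under RLE scaling and DESeq2, -0.002 without a filter and -0.0009 under upper-quartile scaling, which also turned Insig2 to 0.0092 and Lss to 0.0014. Without a filter the median of all genes moved to 0.13. The length offset gave Ebp 0.16, Lss 0.29, Mvk 0.17, Mylip 0.11 and Faf2 0.11. Coding transcripts gave Ebp 0.54, Insig2 0.065, Mvd -0.16, Mvk 0.075, Mylip 0.0083, Icmt -0.20 and Lpcat3 -0.0087. Voom gave Fdft1 0.0022, Hsd17b7 0.55, Insig2 0.19, Mylip 0.014, Scap -0.0369, Srebf1 -0.12, Stard4 -0.30 and Rxrb -0.0817. Without WT 2 and Srp72+/- 1, Ebp was 0.34, Hsd17b7 0.25, Mvk 0.58, Sqle 0.0519 and Stard4 -0.18. Leaving out single libraries spanned -0.10 to 0.50 for Dhcr7, -0.44 to 0.32 for Ebp, -0.82 to 0.26 for Hsd17b7, -0.30 to 0.19 for Insig2, -0.23 to 0.0828 for Lss, -0.70 to 1.04 for Mvd, -1.61 to 0.21 for Mvk, -0.26 to 0.20 for Mylip, -0.79 to 0.0381 for Nr1h3, -0.15 to 0.28 for Scap, -0.37 to 0.17 for Sqle, -0.21 to 0.61 for Srebf1, -1.32 to -0.24 for Fdps, 0.043 to 0.74 for Acat2, -0.79 to -0.15 for Fdft1, -0.22 to 0.21 for Stard4, -0.39 to 0.29 for Tm7sf2 and -0.22 to 0.42 for Rxrb. Except for the effect of a construction with fewer samples or other reads, the cause was not tested. Mvk, Mvd, Nr1h3 and Tm7sf2, at few reads, are the least certain.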
